A study of Mus musculus with 27 samples.

Results

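The secreted frizzled-related proteins *Sfrp1*, *Sfrp2*, *Sfrp4*, *Sfrp5* and *Frzb*, the other secreted Wnt antagonists *Wif1* and *Dkk3*, and *Mest*, a gene whose transcript marks expanding adipose tissue, were examined in *Mlx*KO mice. They were taken by symbol from the deposited expression values and were 8 of 36333 genes, all 8 of which were found. The genes were chosen by their known roles and by measured values of these data, chiefly the difference between ages in adipose tissue. Their adipose values are therefore given as a description, with no test, and tests are given in liver and skeletal muscle only.

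The mice came from a cross of floxed C57Bl6 mice (Mlx Flox/Flox, LoxP sites flanking exons 3 and 6) with a CreER strain carrying Gt(ROSA)26Sortm1(cre/ERT2)Tyj/J on a B6.129 background. The ubiquitous ROSA26 promoter drives the CreER recombinase, so the deletion is body-wide and not limited to a cell type. All mice received tamoxifen at 75 mg/kg by 5 daily intraperitoneal injections at weaning, at a weight of at least 15 g. Omental adipose tissue, liver and skeletal muscle were sampled at 5 months (4 mice, called A to D here in rising order of their mouse numbers, each giving all 3 tissues) and at 20 months (5 samples per tissue, with no shared numbers), 27 samples in all. The older age is the labelled one, although the sample codes carry the number 18. The groups of 4 at 5 months are smaller than the group size in the study's methods. Every group carried the deletion and the tamoxifen treatment, so age and tissue were compared and the effect of losing *Mlx* was not. Excision was not measured here and may be less complete in some tissues or at some ages than in others, which cannot be told apart from the effect of tissue or age. WT mice were not analysed here.

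Wnt proteins are secreted signals that bind Frizzled receptors and the co-receptors Lrp5 and Lrp6 and, in the canonical branch, stabilize β-catenin, which then acts with Tcf and Lef factors on target genes. Secreted frizzled-related proteins carry a cysteine-rich domain like that of the Frizzled receptors and can hold Wnts away from them, and Wif1 binds Wnts through a domain of its own. Dkk3 is the divergent member of the Dickkopf family, and its place in Wnt signaling is less settled than that of Dkk1. In fat, canonical Wnt signaling restrains adipocyte formation. *Mest* is an imprinted gene, expressed from the paternal allele, that encodes a protein with an α/β-hydrolase fold.

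The promoter windows of the genes on which the results turn are given first, as context for the transcripts that follow. They come from RefSeq in build GRCm38.p6, reach from 250 bases before to 50 bases after the annotated start, and read 5′ to 3′ on the gene's strand. Windows were matched for *Sfrp2*, *Sfrp5*, *Frzb*, *Wif1* and *Mest*, and none for *Sfrp1*, *Sfrp4* and *Dkk3*. Mlx and Myc network proteins bind E-box elements, so the letters CACGTG, which read alike on both strands, were searched and are shown in capitals. The study describes a longer carbohydrate response element, of paired E-box-like parts, as the classical site of Mlx heterodimers. That element was not searched. *Sfrp5* and *Mest* are shown because they were highest in 20-month adipose tissue, *Mest* with an upstream and a downstream start, and *Wif1* because its window alone held a match.
Sfrp5 (chr19:42202203-42202502, minus strand): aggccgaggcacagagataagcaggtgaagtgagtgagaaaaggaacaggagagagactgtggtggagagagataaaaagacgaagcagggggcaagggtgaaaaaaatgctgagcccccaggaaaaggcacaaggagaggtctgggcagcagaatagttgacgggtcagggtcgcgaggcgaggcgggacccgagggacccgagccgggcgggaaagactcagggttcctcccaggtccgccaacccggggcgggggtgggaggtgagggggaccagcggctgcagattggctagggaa
Mest, upstream start (chr6:30733256-30733555, plus strand): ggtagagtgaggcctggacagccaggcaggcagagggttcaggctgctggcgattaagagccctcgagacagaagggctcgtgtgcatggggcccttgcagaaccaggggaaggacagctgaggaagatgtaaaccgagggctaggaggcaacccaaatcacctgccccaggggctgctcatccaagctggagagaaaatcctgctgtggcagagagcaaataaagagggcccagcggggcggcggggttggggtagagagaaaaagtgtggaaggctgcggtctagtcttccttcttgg
Mest, downstream start (chr6:30737800-30738099, plus strand): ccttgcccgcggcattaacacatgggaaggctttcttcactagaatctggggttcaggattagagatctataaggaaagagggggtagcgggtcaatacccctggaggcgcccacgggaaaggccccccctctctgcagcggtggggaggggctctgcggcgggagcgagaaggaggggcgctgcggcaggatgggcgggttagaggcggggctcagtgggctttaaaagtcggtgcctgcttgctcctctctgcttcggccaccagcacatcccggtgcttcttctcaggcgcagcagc
Wif1 (chr10:121033754-121034053, plus strand): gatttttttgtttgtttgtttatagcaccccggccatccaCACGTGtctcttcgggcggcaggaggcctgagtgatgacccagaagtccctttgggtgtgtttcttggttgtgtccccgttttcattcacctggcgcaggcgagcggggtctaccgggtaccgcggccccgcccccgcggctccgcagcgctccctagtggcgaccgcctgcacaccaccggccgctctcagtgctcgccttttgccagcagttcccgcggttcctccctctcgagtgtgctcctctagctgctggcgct
The match was in 1 of these 4 windows, and 7.15% of 32851 promoter windows in the same source held it. The letters ATCAAAG, a core to which Tcf and Lef factors bind, were searched on both strands and were in none of the windows of the 5 genes, and 3.73% of all windows held them. The windows shown held 15 CG pairs for *Sfrp5*, 8 and 17 for the upstream and downstream starts of *Mest* and 25 for *Wif1*, where the median window held 7.

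Expression is given as the deposited value, a count of reads per gene scaled to the sample's total and to a factor of its own (scaled CPM). Samples held 14384695 to 25673919 reads on genes, and 1 read was worth 0.0234 to 0.0806, so that a value near 1 is a small number of reads. Log2 changes are differences of log2(value + 1), 20 minus 5 months, with the standard error (SE) of limma, and this scale understates changes at low values. *Mlx*, the targeted gene, is counted over all its exons, and its log2 change with age was 0.19 in adipose tissue, -0.28 in liver and 0.13 in skeletal muscle (limma adjusted p = 0.349, 0.168 and 0.503). The summed value of 8 adipocyte markers was 9164 to 17306 in the 9 adipose samples, against 336 to 538 in skeletal muscle and 70.8 to 271.9 in liver. Hepatocyte markers summed to at least 40344 in liver and skeletal muscle markers to at least 125448 in muscle. The mice differed within a group by more than sampling noise in all 48 pairs of samples.

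*Sfrp5*, an adipokine that binds Wnts (ID 54612; chromosome 19, 42197971 to 42202252 in GRCm38.p6, minus strand), was far higher in adipose tissue at 20 than at 5 months. At 5 months its value was 3.41, 1.70, 35.0 and 91.9 in mice A to D. At 20 months it was 163, 323, 216, 264 and 259 in samples 36 to 40. The ages did not overlap, and the 5-month mice spread over a 54.0-fold range while the 20-month mice spread over 1.98-fold. The means were 33.0 ± 42.1 (SD, n = 4) and 245 ± 59.6 (SD, n = 5), a ratio of 7.43, and the ratio of the medians was 13.5. The log2 change was 4.09 (SE 0.917), the largest increase among the 14005 genes tested in adipose tissue.

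*Mest* (ID 17294; chromosome 6, 30733506 to 30748466, plus strand) showed the same pattern. Its value at 5 months was 19.6, 6.98, 76.5 and 191.6 in mice A to D. At 20 months it was 229, 329, 200, 484 and 446 in samples 36 to 40. The ages did not overlap, but mouse D lay just under the lowest 20-month sample. The means were 73.7 ± 84.3 (SD, n = 4) and 338 ± 126 (SD, n = 5), a ratio of 4.58, and the log2 change was 3.01 (SE 0.794), in position 16 from the top. The value sums all *Mest* transcripts, and the gene overlaps *Copg2* on the opposite strand and holds *Mir335*, whose own row was at 0 in all 9 adipose samples. Whether the authors' counting used strand is not given in the sources used here, so reads where *Mest* and *Copg2* overlap are uncertain.

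**Figure D1:**
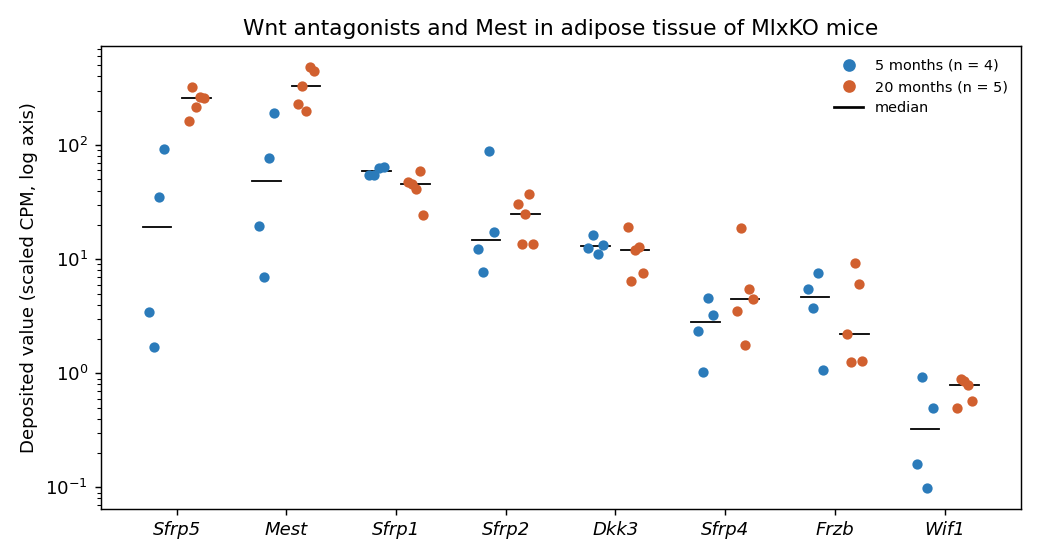
Value of each gene (scaled CPM, log axis) in the adipose samples, 1 point per mouse, blue at 5 months and orange at 20 months, with bars at the medians. *Sfrp5* and *Mest* are the genes whose ages do not overlap, and both spread widely at 5 months.

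*Sfrp5* and *Mest* placed the 5-month mice in the same order, with mouse B lowest, then A, C and D. At 5 months the value of *Mest* was 5.73, 4.11, 2.19 and 2.09 times that of *Sfrp5* in mice A to D. At 20 months it was 0.926 to 1.83 times that of *Sfrp5*. The ratio of *Mest* to *Sfrp5* was thus smaller in every 20-month sample than in any 5-month mouse. Per kilobase of annotated exon, a scale on which genes can be compared, the median level in 20-month adipose tissue was 136 for *Sfrp5* and 83.3 for *Mest*, against 10.1 and 12.2 at 5 months.

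**Figure D2:**
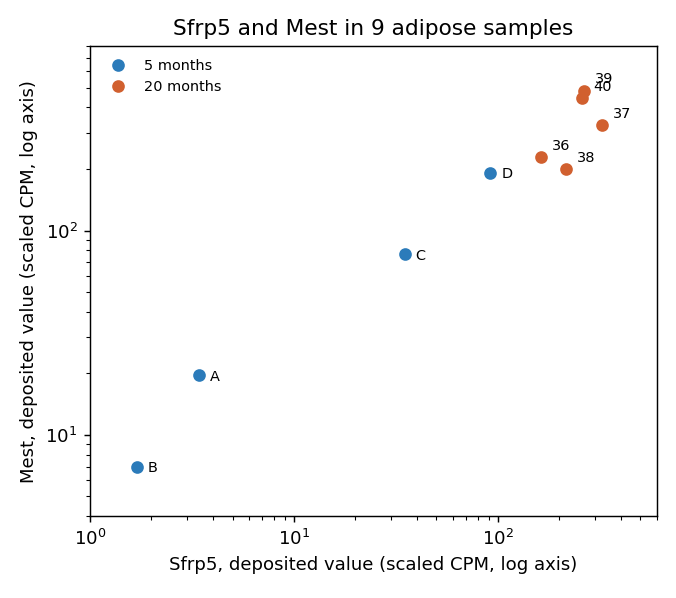
*Mest* against *Sfrp5* (scaled CPM, both log axes) in the 9 adipose samples, each point labelled A to D for the 5-month mice and by number for the 20-month samples. The 4 mice at 5 months lie along a rising line from B to D and the 20-month samples lie above them on both axes.

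The genes most like *Sfrp5* and *Mest* across the adipose samples were sought by Pearson's r of log2(value + 1) over the 9 samples, among 10720 other genes with a mean of at least 5. The samples share the 2 ages, so a high r can follow from any large age difference, and it is given as a description. The genes most like *Sfrp5* were *Crtac1* (r = 0.994), *Aga* (0.993), *Tmem45b* (0.993), *Prr32* (0.987) and *Anxa6* (0.986), with *Mest* in position 8 (0.982). *Tmem45b* had values of 15.3 to 109.6 at 5 months and 212 to 298 at 20 months, and *Crtac1* 0.443 to 18.9 and 22.5 to 36.4. For *Mest* they were *Serpina3c* (0.985), *Crtac1* (0.984), *Pde7a* (0.982), *Cd59a* (0.982) and *Sfrp5* itself (0.982).

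With each age's mean taken out, so that r reflects only how mice of the same age differed, the leading genes for *Sfrp5* were *Serpina3c* (0.982), *Crtac1* (0.981), *Sdsl* (0.980), *Tmem45b* (0.979) and *Aga* (0.979), and *Mest* stood at 0.958. For *Mest* they were *Serpina3c* (0.988), *Gpr180* (0.969), *Copg2* (0.966), *Crtac1* (0.964) and *Cacng7* (0.961). *Copg2* is the gene that overlaps *Mest*. The 5-month mice spread over 54.0-fold for *Sfrp5* and 27.4-fold for *Mest*, against 1.98-fold and 2.42-fold at 20 months. These r therefore rest mainly on 4 mice, and the genes were picked as the highest of 10720, so they are a description only. *Serpina3c*, picked for its high r, had values of 10.98, 7.24, 24.5 and 38.8 in mice A to D, the same order as *Sfrp5* and *Mest*. Its values were 30.8 to 44.8 at 20 months, so that its ages overlapped. The order among the 5-month mice thus went with genes that did and genes that did not separate the ages.

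Marker genes of several cell types moved with age in adipose tissue, and bulk tissue cannot tell fewer cells of a type from less RNA per cell. Adipocyte markers summed to 9164 to 17306 at 5 months and 10273 to 14740 at 20 months, with 0 of 8 higher and 1 lower (limma adjusted p under 0.05), and no adipocyte marker was at 0 in any sample. Macrophage markers summed to 714 to 1467 and 899 to 4857, with 1 of 6 higher and 1 lower, and B cell markers to 2.96 to 15.1 and 10.98 to 150.04, with all 4 higher. Mesothelial markers, in contrast, summed to 136 to 237 at 5 months and 56.2 to 138 at 20 months, with 4 of 11 lower, and endothelial markers to 564 to 1269 and 358 to 666, with 2 of 4 lower. Schwann cell markers summed to 3.85 to 7.02 and 1.22 to 2.45, with no overlap, and the only 1 of 3 that could be tested was lower. T cell markers summed to 3.58 to 6.44 and 3.11 to 30.9, and 0 of 3 passed the threshold. Fibroblast and progenitor markers summed to 2099 to 3027 and 1795 to 2742, with 2 of 9 lower (*Cd34* and *Pi16*). Smooth muscle markers summed to 320 to 797 and 180 to 531, with 2 of 4 lower (*Cnn1* and *Myh11*). The 4 genes listed as brown adipocyte markers (*Ucp1*, *Cidea*, *Pdk4* and *Elovl3*) summed to 691 to 933 and 333 to 801, with 1 of the 2 that could be tested higher (*Cidea*). Their sum was 5590 to 11052 in skeletal muscle, so it is not particular to brown adipocytes.

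Skeletal muscle markers, a sign of muscle RNA in the fat samples, summed to 327, 352, 806 and 843 in mice A to D, so that the 2 mice with the most *Sfrp5* also had the highest muscle marker sums, and to 99.0 to 566 at 20 months. The value of *Sfrp5* in skeletal muscle itself was 8.77 to 16.4, and that of *Mest* was 1.02 to 4.56. The part of muscle and of the cell types listed above in the values of *Sfrp5*, *Mest* and the other members was not tested.

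The remaining Wnt antagonists overlapped between ages in adipose tissue. *Sfrp1* (ID 20377; chromosome 8, 23411383 to 23449632), had values of 54.4, 55.1, 62.8 and 64.2 at 5 months and 47.3, 45.6, 41.4, 58.9 and 24.2 at 20 months. All but 1 of the 20-month samples, number 39, lay below every 5-month mouse, and the log2 change was -0.49 (SE 0.217). *Sfrp2* (ID 20319; chromosome 3, 83765750 to 83774314) had values of 12.4, 7.65, 87.9 and 17.2 at 5 months and 13.7 to 37.5 at 20 months. Mouse C stood apart from the rest of its group, and the log2 change of 0.16 (SE 0.613) became 0.86 without it and -0.26 without mouse B.

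*Sfrp4* (ID 20379; chromosome 13, 19623175 to 19632825) had values of 1.03 to 4.55 at 5 months and 1.78 to 18.8 at 20 months, with sample 37 apart from the other 20-month samples, and a log2 change of 0.79 (SE 0.513). *Frzb*, a frizzled-related protein first known from cartilage (ID 20378; chromosome 2, 80411970 to 80447396), had values of 1.08 to 7.50 and 1.25 to 9.34 and a log2 change of -0.23 (SE 0.548). *Dkk3* (ID 50781; chromosome 7, 112116019 to 112159482) had values of 11.2 to 16.1 and 6.42 to 19.1 and a log2 change of -0.27 (SE 0.270). *Wif1* (ID 24117; chromosome 10, 121034004 to 121100642) stayed under 1 in every adipose sample, on 3 to 34 reads, and was below the minimum for a fit. Of the 7 genes that could be fitted in adipose tissue, 2 did not overlap between ages, both higher, beside 17.4% of all genes there (8.3% higher and 9.1% lower). The choice of genes rested on this contrast, and nothing is read from that share. Per kilobase, the median level of *Sfrp1* in 5-month fat was 13.5, that of *Sfrp5* 10.1 and that of *Sfrp2* 6.88, so *Sfrp1* led the antagonists there by median.

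In skeletal muscle the antagonists that moved with age were others. *Dkk3* rose from 68.7, 52.9, 61.5 and 61.7 in mice A to D to 196, 210, 206, 221 and 179 in samples 56 to 60. The ages were far apart, with the lowest 20-month sample at 179 and the highest 5-month mouse at 68.7. The means were 61.2 ± 6.47 (SD, n = 4) and 202 ± 15.8 (SD, n = 5), a ratio of 3.31, and the log2 change was 1.71 (SE 0.097, limma adjusted p = 9.36e-06). That increase was in position 8 from the top among 12720 genes tested in muscle, and it passed the threshold in every one of 18 alternatives.

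*Wif1* fell in skeletal muscle, from 3.84, 5.16, 3.21 and 6.48 in mice A to D to 1.83, 0.731, 0.434, 1.84 and 1.28 in samples 56 to 60. Every 20-month sample was below every 5-month mouse. The counts behind these values were 41 to 93 reads at 5 months and 6 to 28 at 20 months. The mean at 5 months was 3.82 times that at 20 months, and the log2 change was -1.37 (SE 0.243, limma adjusted p = 0.00502). It passed the threshold in each of 17 alternatives in which it could be fitted.

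*Mest* rose in muscle, with values of 1.02 to 1.85 at 5 months and 1.76 to 4.56 at 20 months and a log2 change of 0.83 (SE 0.217, limma adjusted p = 0.0244). Only sample 56, at 1.76, reached into the 5-month range. Its call was lost without sample 57, sample 58 or mouse A (limma adjusted p = 0.0568, 0.0582 and 0.0540), and the alternatives ran from 0.00352 to 0.329. *Mest* was nonetheless rare outside fat, since its highest muscle value of 4.56 lay below its lowest adipose value of 6.98. Adipocyte markers, a sign of fat RNA in the muscle samples, summed there to 447 to 538 at 5 months and 336 to 483 at 20 months, with 1 of 8 lower. The part of fat, where *Mest* was far higher, in the muscle values of *Mest* and the other members was not tested.

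The other members did not pass the threshold in muscle. *Sfrp5* had values of 10.2 to 13.9 at 5 months and 8.77 to 16.4 at 20 months (log2 change 0.18, limma adjusted p = 0.491), *Sfrp4* 7.67 to 13.2 and 4.85 to 9.85 (-0.42, 0.162), and *Sfrp2* 1.31 to 4.67 and 0.145 to 2.13 (-0.77, 0.132). *Frzb* had log2 changes of -0.10 (limma adjusted p = 0.680) and *Sfrp1* of -0.14 (0.669). In all, 3 of the 8 genes passed in muscle, 2 higher and 1 lower, beside 19.3% of all genes tested there (9.13% higher and 10.1% lower). The ages did not overlap for *Dkk3*, which was higher, and *Wif1*, which was lower, beside 8.63% and 8.64% of all genes in those directions.

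Fibroblast and progenitor markers in muscle summed to 1033 to 1483 at 5 months and 575 to 978 at 20 months, with 5 of 9 lower, and macrophage markers to 125 to 227 and 73.5 to 138, with 4 of 6 lower. Schwann cell markers summed to 51.7 to 90.3 and 38.3 to 61.5, with 1 of 3 lower, alongside the fall of *Wif1*. No marker of these 3 lists was at 0 in any muscle sample, and their part in the *Dkk3* and *Wif1* values was not tested.

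**Figure D3:**
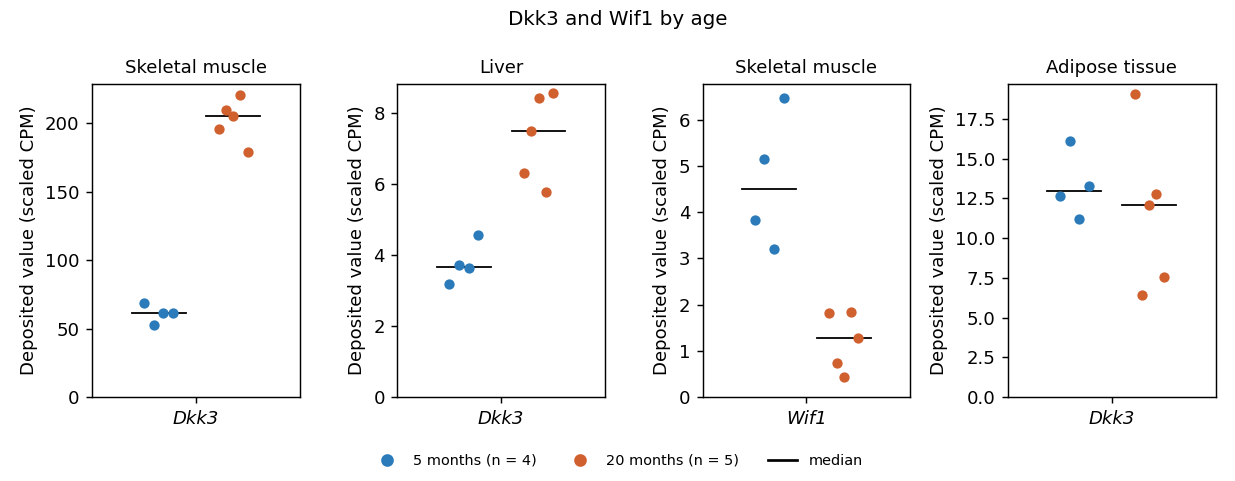
Value (scaled CPM) of *Dkk3* in skeletal muscle, liver and adipose tissue and of *Wif1* in skeletal muscle, 1 point per sample, blue at 5 months and orange at 20 months, with bars at the medians and every axis from 0. The ages are apart for *Dkk3* in muscle and liver and for *Wif1* in muscle, and overlap for *Dkk3* in adipose tissue.

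In liver, where most of these genes were barely detected, *Dkk3* and *Mest* rose. *Dkk3* had values of 3.18, 3.71, 3.64 and 4.56 in mice A to D and of 6.31, 7.51, 8.43, 5.79 and 8.57 in samples 16, 17, 18, 19 and 74. The ages did not overlap, the ratio of the means was 1.94, and the log2 change was 0.80 (SE 0.153, limma adjusted p = 0.0109), past the threshold in each of 18 alternatives. *Mest* had values of 2.35, 0.727, 1.57 and 1.20 at 5 months and 2.49, 2.60, 3.66, 2.50 and 5.06 at 20 months in the same order.

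The *Mest* ages in liver did not overlap, but mouse A at 2.35 came close to the lowest 20-month sample. The log2 change was 0.80 (SE 0.236, limma adjusted p = 0.0382), and the call was lost without any of 7 of the 9 samples (samples 17, 18, 19 and 74 and mice B, C and D, limma adjusted p = 0.0594, 0.0917, 0.0539, 0.0545, 0.106, 0.0655 and 0.0816). Over all alternatives its adjusted p from limma, edgeR and DESeq2 ran from 0.0144 to 0.315. Of the 3 members that could be fitted in liver, 2 passed, both higher and both without overlap of the ages, beside 19.8% of all genes tested there (10% higher and 9.79% lower, and 8.46% higher without overlap). *Frzb* was the other, with values of 2.16 to 3.71 at 5 months and 2.75 to 3.86 at 20 months (log2 change 0.10, limma adjusted p = 0.679).

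The other 5 genes were below the minimum for a fit in liver. *Sfrp5* lay between 0.150 and 1.14. *Sfrp1* had values of 0.143 to 0.400 at 5 months, on 2 to 6 reads, and 0.398 to 1.20 at 20 months, on 7 to 24 reads. These ranges barely overlapped, and the difference was not tested. *Sfrp2* had no read in 3 of 4 mice at 5 months and in 1 of 5 samples at 20 months, *Wif1* in 3 and 2, and *Sfrp4* in 0 and 3. At up to 4 reads for *Wif1* and 2 for *Sfrp4*, an age difference was not detectable at this depth. Hepatocyte markers in liver summed to 97496 to 154714 at 5 months and 40344 to 92553 at 20 months, lowest in sample 74, with no overlap and 1 of 5 lower, and macrophage markers to 158 to 293 and 174 to 595, with 1 of 6 higher. Fibroblast and progenitor markers in liver summed to 347 to 478 at 5 months and 415 to 572 at 20 months, with 4 of 8 tested higher, and B cell markers to 1.24 to 6.48 and 6.63 to 14.03, with all 4 higher, while none of these fibroblast, progenitor and B cell markers was at 0 in any liver sample. Their part in the *Dkk3* and *Mest* values was not tested.

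The age change was then compared directly between liver and muscle, in a single fit of all 27 samples, which also takes its spread from the adipose samples. It differed for *Wif1*, by 1.46 on the log2 scale (liver minus muscle, SE 0.271, limma adjusted p = 0.000861), and for *Dkk3*, by -0.91 (SE 0.271, limma adjusted p = 0.0214), beside 17.5% of all 15572 genes. The *Wif1* difference set its fall in muscle against a liver with 0 to 4 reads, where the change on this scale is held near 0, and so adds nothing to the fall in muscle. *Dkk3* rose in both tissues and rose more in muscle. With the mouse as a block, the adjusted p was 0.000554 for *Wif1* and 0.0170 for *Dkk3* (limma). The *Dkk3* difference missed the threshold at a pseudocount of 0.1 (limma adjusted p = 0.0638) and without muscle mouse B (limma adjusted p = 0.0503). For *Mest* the difference was -0.03 (SE 0.752, limma adjusted p = 0.990), a standard error too wide to set its liver and muscle changes apart or alike. That standard error also holds the wide spread of *Mest* in adipose tissue. The fits of liver and of muscle alone gave 0.236 and 0.217 for the change in each.

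**Figure D4:**
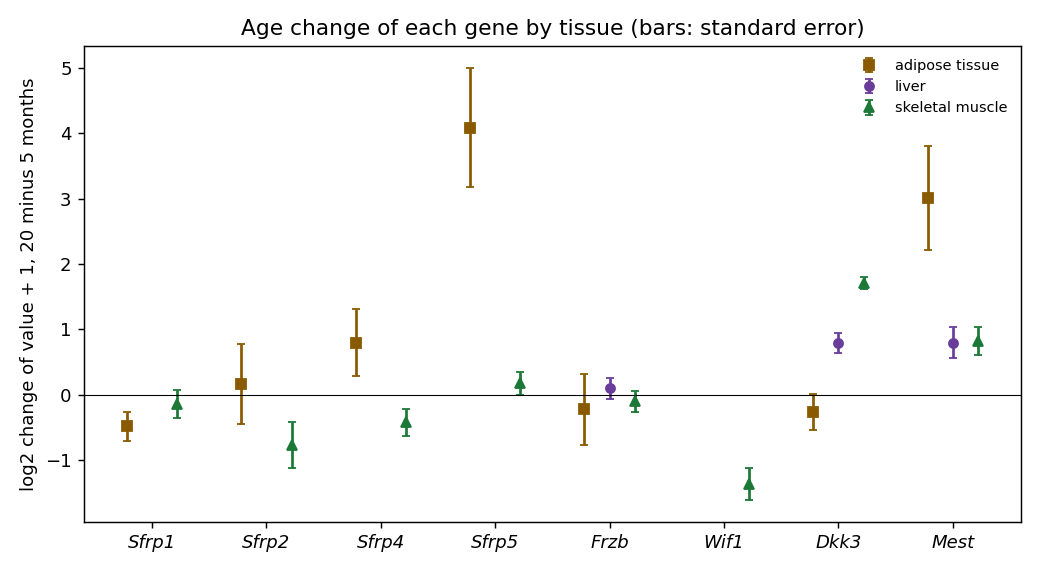
Log2 change of value + 1 from 5 to 20 months for each gene (points) with its standard error (bars), in adipose tissue (squares), liver (circles) and skeletal muscle (triangles), where the gene could be fitted. *Sfrp5* and *Mest* stand highest in adipose tissue, *Dkk3* in muscle, and *Wif1* lies lowest, in muscle.

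By median, *Sfrp1*, *Sfrp2* and *Sfrp5* were highest in adipose tissue, then muscle, then liver, while *Dkk3*, *Sfrp4* and *Wif1* were highest in muscle, then adipose tissue, then liver. The values of all genes summed to 5.59e+05 to 6.47e+05 in adipose samples, 1.06e+06 to 1.24e+06 in muscle and 9.53e+05 to 1.40e+06 in liver. The order of adipose tissue against the others thus depends on this scaling where levels are close, as for *Wif1* at 20 months. *Sfrp5* ran from adipose tissue at 20 months (median 259) through adipose tissue at 5 months (19.2) and muscle at 20 and 5 months (14.5 and 11.8) to liver (0.916 and 0.731 at 20 and 5 months), and the ranges of adipose tissue at 5 months and of both muscle groups overlapped. *Mest* was highest in adipose tissue at both ages, and the ranges of its muscle and liver samples of the same age overlapped. *Sfrp1* and *Sfrp2* were also higher in every adipose sample than in every muscle or liver sample.

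*Dkk3* was led by muscle at 20 months (median 206) and at 5 months (61.6), each apart from the group below it, then adipose tissue (12.97 and 12.1 at 5 and 20 months, which overlapped) and liver (7.51 and 3.67 at 20 and 5 months), of which the 20-month range overlapped that of 20-month fat. *Sfrp4* was highest in muscle by median (10.6 and 7.70 at 5 and 20 months), with both ranges overlapping that of 20-month adipose tissue, and almost absent from liver. *Wif1* was highest in muscle at 5 months (4.50), above every other group. *Frzb* was the most even, with medians between 2.21 and 6.90 over the 6 groups and neighbours in that order overlapping throughout. Per kilobase, *Sfrp5* led the antagonists in 20-month adipose tissue (136, against 11.6 for *Sfrp2* and 10.4 for *Sfrp1*) and *Dkk3* in 20-month muscle (61.2, against 7.65 for *Sfrp5*).

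The rest of the Wnt pathway was read from 95 genes in fixed lists, without the 8 members. In adipose tissue 70 could be tested, and 15 fell and 0 rose with age (limma adjusted p under 0.05). That was 21.4% in all, beside 19.1% of all genes, with 9.35% of all genes lower and 9.75% higher. The 15 include *Wnt9b* and *Wnt8b*, which reached the minimum value only at 5 months, so that the filter fixed their direction. The share is near that of all genes, and nothing about the pathway is read from it. The median log2 change of the 70 was -0.16 and that of all genes 0.01. At an unadjusted p under 0.05, limma put 23 lower and 4 higher. The quasi-likelihood test of edgeR called 13 lower and 0 higher, and DESeq2 called 18 lower and 2 higher. The count rested on single samples, since it was 2 without mouse A, 4 without mouse B, 5 without sample 39 and 6 without sample 37, 38 or 40.

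Among the ligands 4 of 10 fell and none rose. *Wnt2b*, with a mean of 6.99 ± 3.20 in young fat (SD, n = 4) against 2.13 ± 0.528 in old (SD, n = 5), fell by 1.29 on the log2 scale (limma adjusted p = 0.0169). *Wnt9b*, *Wnt8b* and *Wnt6* fell by 1.17, 1.06 and 0.95 on the log2 scale. All 3 were scarce, with 20-month means of 0.187, 0.414 and 0.667. *Wnt9b* and *Wnt8b* reached the minimum value only in the 4 mice at 5 months, so that they entered the fit through the age in which they were high and could not be refitted with a 5-month mouse left out. *Wnt2b* lost its call in 1 of 17 alternatives and *Wnt6* in 8 of 17.

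Of 14 receptors, *Fzd3*, a Frizzled, and *Ror1*, a receptor tyrosine kinase for Wnt5a, fell by 0.86 and 0.73 on the log2 scale, and lost their calls in 8 of 17 and 11 of 18 alternatives. Of 8 genes of Wnt secretion and R-spondin signaling, *Porcn*, the acyltransferase that lipidates Wnts for secretion, fell, with means of 17.9 ± 3.10 (SD, n = 4) and 7.92 ± 1.80 (SD, n = 5). Its log2 change was -1.09 (limma adjusted p = 0.0105), its ages did not overlap, and it passed in all 18 alternatives. *Rspo1*, an R-spondin that strengthens Wnt signals, and *Znrf3*, a ubiquitin ligase that removes Frizzled receptors, fell by 1.06 and 0.88 on the log2 scale and lost their calls in 10 and 7 of 18. Thus the genes that fell included both a Wnt agonist and a Wnt inhibitor.

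Of 23 intracellular genes 4 fell, the co-repressor *Tle3* (log2 change -0.69), the transcription factor *Tcf7l2* (-0.60), the β-catenin cofactor *Bcl9* (-0.52) and the transducer *Dvl3* (-0.47). *Tle3* had the lowest adjusted p of these (0.0165, limma), from 153 ± 24.9 (SD, n = 4) to 94.1 ± 11.05 (SD, n = 5). The calls of *Tle3*, *Tcf7l2*, *Bcl9* and *Dvl3* were lost in 1, 7, 5 and 6 of 18 alternatives. Of 8 target genes, *Myc* and *Ccnd1*, which many other signals also control, fell by 0.57 and 0.51 on the log2 scale, and lost their calls in 7 and 4 of 18. Of the 7 other antagonists that could be tested, 0 passed with limma in either direction. Mesothelial, endothelial and Schwann cell markers, and some smooth muscle and fibroblast markers, were lower at 20 months as well, as given above. Their part in the counts was not tested.

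**Figure D5:**
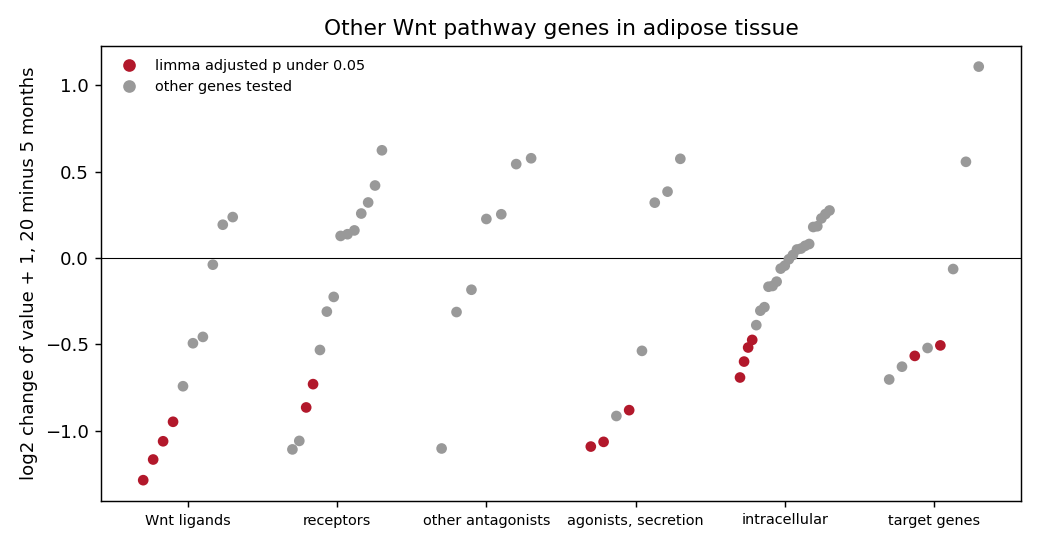
Log2 change of value + 1 from 5 to 20 months in adipose tissue for the 70 tested genes of 6 Wnt pathway lists, 1 point per gene, sorted within each list, with genes past the threshold of limma in red. The 15 red points all lie below 0, among them *Wnt9b* and *Wnt8b*, whose direction the filter fixed.

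In liver and muscle the share of these genes that passed was at or below that of all genes, so the counts are no result about the pathway. In liver 58 of the 95 could be tested, and 5 rose and 6 fell (19% beside 19.8% of all genes). Those that rose were *Wnt4*, *Shisa3*, *Rnf43*, *Tle3* and *Sp5*, and those that fell were *Fzd4*, *Fzd5*, *Lrp6*, *Lgr4*, *Gsk3b* and *Apc*. In muscle 64 could be tested, and 4 rose and 7 fell (17.2% beside 19.3%), the first being *Wnt5b*, *Fzd7*, *Shisa2* and *Rspo3* and the second *Fzd1*, *Fzd5*, *Igfbp4*, *Bcl9*, *Tcf7l1*, *Tle4* and *Myc*. The liver and muscle counts also rested on single samples, with 5 to 15 and 6 to 18 genes when each sample was left out in turn, the lowest without liver sample 18 and muscle sample 60.

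*Mest* is imprinted and marks fat expansion, so other imprinted genes and adipogenic genes were read beside it in adipose tissue. Of 14 imprinted genes tested, 1 rose and 3 fell, 28.6% beside 19.1% of all genes. *Nnat*, a proteolipid gene, had values of 76.2, 28, 181 and 254.3 in mice A to D and 255.0 to 517 at 20 months (log2 change 1.92, limma adjusted p = 0.0411), with the 5-month mice in the order of *Sfrp5* and *Mest*. *Grb10*, which restrains insulin receptor signaling, fell from 172 ± 44.5 (SD, n = 4) to 53.8 ± 31.2 (SD, n = 5), the growth factor gene *Igf2* from 18.6 ± 5.83 to 5.39 ± 3.04, and the noncoding *Meg3* from 35.9 ± 4.28 to 20.7 ± 2.73. The calls of *Nnat*, *Grb10*, *Igf2* and *Meg3* were lost in 8, 4, 3 and 1 of 18 alternatives. *Nnat* and *Mest* thus rose or stood higher at 20 months while *Grb10*, *Igf2* and *Meg3* fell. *Copg2*, also on the list, had a log2 change of 0.48 and did not pass (limma adjusted p = 0.0880). The median log2 change of the 14 was 0.06.

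Of 15 genes of adipogenesis, 1 rose and 2 fell, 20% beside 19.1% of all genes. *Bmp3*, a secreted BMP family member made by adipocytes, had values of 2.52, 4.21, 9.79 and 11.9 at 5 months and 15.5, 65.5, 44.8, 39.2 and 33.5 in samples 36 to 40, a log2 change of 2.38 (limma adjusted p = 0.0160) that passed in all 18 alternatives. *Cebpd*, an early factor of the program, and *Pparg*, its central regulator, fell by 1.09 and 0.61 on the log2 scale, and lost their calls in 9 and 11 of 18. *Pparg* went from 102 ± 21.9 (SD, n = 4) to 66.3 ± 11.7 (SD, n = 5), with ages that overlapped.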

How the data were processed

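Poly(A) RNA from 27 tissue samples of *Mlx*KO mice was sequenced, with CLC Genomics Workbench 23.0 used by the authors for gene counts. What they deposited is a signal: CPM divided by a factor for each sample. The design had assumed CPM, and its tests were kept. In every sample 100% of values were whole multiples of 1 read (within 0.02 reads), which gave the recovered reads. CLC's genome is not given in the sources used here. Submitters' processing notes name GRCm38.p6 and mm10, and coordinates are those of GRCm38.p6, matched by gene ID. Exon lengths and overlaps come from GENCODE M21.

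Ages were compared within each tissue by limma 3.58.1 (R 4.3.3) with a variance trend on log2(value + 1), keeping genes that reached a value of 1 in 4 or more samples, and p-values were adjusted by Benjamini-Hochberg (threshold 0.05). As alternatives, edgeR 4.0.16 or DESeq2 1.42.0 was run on recovered reads, the pseudocount was set to 0.1 or 0.5, the filter was dropped or raised to a mean of 5, factors were taken by median of ratios, samples were weighted or pooled over tissues into a single fit, and each sample was left out. Fits were tested on simulated data. The p-values measure only the spread between samples. The 5-month tissues come from the same 4 mice, whose 12 pairs of tissues correlated by 0.136 on average, so the mouse was a block in an alternative of the liver and muscle comparison. A gene with no read is below what 3 reads can show, for counting error only.

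The members and lists were chosen with earlier results of these data known. Genes named were the members, *Mlx*, up to 4 genes per list with the largest change in adipose tissue among those past the threshold, and the 5 genes most like *Sfrp5* and *Mest*. Genes that passed in liver and muscle were named after their values were seen.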

Additional observations from a re-analysis of the deposited data

Results flagged for a closer look

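Several samples stood apart from the rest of their group by Dixon's criterion, 6 of 54 groups of 4 or 5 samples examined. Chance gives about 1 in 20 for normally spread values only. Some of these groups held counts near 0, so the number of flags cannot be set against that rate. In adipose tissue, *Sfrp2* was 87.9 in mouse C at 5 months, against 7.65 to 17.2 in the other mice, and *Sfrp4* was 18.8 in sample 37 at 20 months, against 1.78 to 5.51 in the others. In liver, sample 74 at 20 months was high for *Sfrp2* (1.05, against 0 to 0.250) and low for *Sfrp5* (0.150, against 0.795 to 1.02). *Sfrp2* in liver of mouse B (0.0727) and *Wif1* in liver of mouse C (0.0713) were single reads where the other 5-month mice had none. The criterion always flags that pattern.

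The age change differed between liver and muscle for *Wif1* (1.46 on the log2 scale) and *Dkk3* (-0.91), by the test of the difference itself (limma). For *Wif1*, liver held 0 to 4 reads, so the difference restates the fall in muscle. For *Dkk3*, the call was lost at a pseudocount of 0.1 (limma adjusted p = 0.0638) and without muscle mouse B (limma adjusted p = 0.0503).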

How the results depend on the processing

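No member that was called in liver or muscle changed direction under any alternative, and *Dkk3* in both tissues and *Wif1* in muscle kept their calls in each one run. In adipose tissue the log2 change of *Sfrp5* was 2.91 to 5.64 and that of *Mest* 2.21 to 4.10 over the alternatives that kept all samples, and 3.29 to 4.99 and 2.24 to 3.77 when each sample was left out. The counts of genes called depended on the setting, and the cause was not tested. In adipose tissue 2674 genes became 1525 with no filter, 5270 in 1 fit of all samples, 4348 with DESeq2 and 8456 with sample weights, and 397 to 3748 when each sample was left out. Its 15 Wnt pathway genes became 23 in 1 fit of all samples and 41 with sample weights (27 lower and 14 higher), and 2 to 22 when each was left out. In liver, 2508 genes became 4454 and 11 Wnt pathway genes 18 with sample weights, and 959 to 3557 and 5 to 15 when each was left out. In muscle, 2451 genes became 1507 with no filter, and 1158 to 3796, and 11 Wnt pathway genes 6 to 18, when each was left out. With the mouse as a replicate block, the difference between liver and muscle was called for 3071 genes in place of 2732, and no call of a member changed. At a pseudocount of 0.1 the *Sfrp2* difference passed (2.83, limma adjusted p = 0.0480). In liver *Wif1* and *Sfrp4* had at most 4 and 2 reads in a sample and *Sfrp2* at most 21, so low counts limit what can be read there.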

Other observations

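The order of the 5-month mice for *Sfrp5* was partly shared between tissues. Mice A and B were lower than mice C and D in adipose tissue (3.41 and 1.70 against 35.0 and 91.9), in muscle (10.2 and 10.3 against 13.9 and 13.2) and in liver (0.382 and 0.582 against 1.14 and 0.880, on 6 to 16 reads). Of 17224 genes with reads in all 3 tissues at 5 months, 4.82% showed this split in all 3 and 3.03% the opposite one, so many genes separated the same mice. *Mest* did not show it outside adipose tissue. The split follows the mouse numbers in the labels, those of A and B being lower and those of C and D consecutive, and was noticed after the values were seen. What the numbers mark is not given in the sources used here.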
